A study of Rattus norvegicus with 8 samples.

Results

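Voltage-gated calcium channels open when a cell is depolarised and let calcium in through a large pore-forming alpha subunit, which sets the type of the channel. The array carried 10 oligos, each with its own Sequence ID, for 7 genes of these pore subunits, among 22491 sequences in all. They were taken by the gene symbol in the deposited table: Cacna1a, Cacna1b, Cacna1c, Cacna1d, Cacna1e, Cacna1g and Cacna1i. Of the 7 genes, 3 had 2 sequences (Cacna1a, Cacna1d and Cacna1g) and 4 had 1, and all 10 sequences had values on all 8 arrays. Each sequence is described apart and is named by the accession given beside it.

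The RNA was from dorsal root ganglia, taken 7 days after surgery from Sprague Dawley rats, with 4 spinal nerve ligation samples and 4 control samples, each pooled from 2 animals. Spinal nerve ligation, the Chung model of neuropathic pain, ties spinal nerves close to the ganglion, so that the axons of its sensory neurons are cut off from their targets. The labels call the control samples contralateral in their titles and sham-operated in their descriptions, so it is not settled whether a control ganglion came from the other side of a ligated rat or from a sham-operated rat, and they give no age or sex. Each sample was labelled with Cy5 and hybridised on 1 array against a common Cy3-labelled pool of control ganglia. A value is the log2 ratio of sample over reference intensity, and a change is the mean ratio of the ligation arrays minus that of the control arrays.

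The median sample intensity per array was 0.17 to 0.22, on a scale that reached 21.56 to 27.42, and the median log2 ratio was 0 on every array. Intensities from 0.01 upwards were printed with 2 decimals, so a sequence at an intensity of a few hundredths can take only a few different ratios. Of the 10 pore subunit sequences, 6 had a mean sample intensity under 0.1, as did 33.2% of all sequences. Neuronal markers were present in the tissue: advillin (Avil) had sample intensities of 3.42 to 3.76 on the control arrays, and all 6 measured general neuronal markers had a mean intensity of at least 0.1. In whole ganglia, fewer cells of a type and less RNA per cell cannot be told apart. Ligation arrays 2 and 3 deviated more alike than other pairs from the mean of their group (r = 0.014 over 22158 sequences, against -0.563 to -0.261 for the other pairs of ligation arrays), and results that depend on them are given with and without them.

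As background, the pore subunits fall into 3 families. Cacna1c and Cacna1d encode L-type pores, which couple depolarisation to signalling in the cell body. Cacna1a (P/Q-type), Cacna1b (N-type) and Cacna1e (R-type) encode high-voltage-activated pores that drive transmitter release, and the N-type channel at the central terminals of sensory neurons is the target of the analgesic ziconotide. Cacna1g and Cacna1i encode T-type pores, which open at small depolarisations and shape bursting and excitability. High-voltage-activated pores travel with beta and alpha-2-delta subunits, and gabapentin binds an alpha-2-delta subunit.

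Ligation was compared with control to ask which pore subunit transcripts went up or down in the ligated ganglia. The clearest differences were in the T-type gene Cacna1g, whose 2 sequences moved in opposite directions: NM_031601 fell 3.37-fold and g3786350 rose 1.62-fold. Cacna1b and Cacna1c fell by small amounts as ratios to the reference. Both calls were lost with the sample channel alone and under quantile normalization. The sequences of Cacna1a, Cacna1d, Cacna1e and Cacna1i were too dim for their changes to be resolved. In all, 6 of the 10 sequences passed the test, where 58.6% of all sequences did. Of these 5 were lower, as were 32.2% of all 22379 tested sequences, and 1 was higher, as were 26.4%. Among the 6 sequences with a mean intensity under 0.1, 2 passed, both as lower, where 31.8% of sequences that dim passed in either direction and 18.2% as lower. Among the 4 brighter ones 3 were lower, where 39.2% of brighter sequences were. With the brightest sequence of each gene, 5 of the 7 genes passed, all as lower. Of all named genes 66.1% passed in either direction and 35.8% as lower. This choice leaves out Cacna1g g3786350, the only sequence that passed as higher, and it counts the dim sequences of Cacna1a and Cacna1d. The ranges of the groups did not overlap for 5 of the 10, against 53.3% of all sequences. Control arrays differed from the reference for 0 of the 10, against 0.661%. At least a 2-fold change was found for 1 of the 10, Cacna1g NM_031601, against 8.08% of all sequences in either direction and 3.41% as lower. The median log2 change of the 10 sequences was -0.19, beside -0.05 over all sequences.

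**Figure D1:**
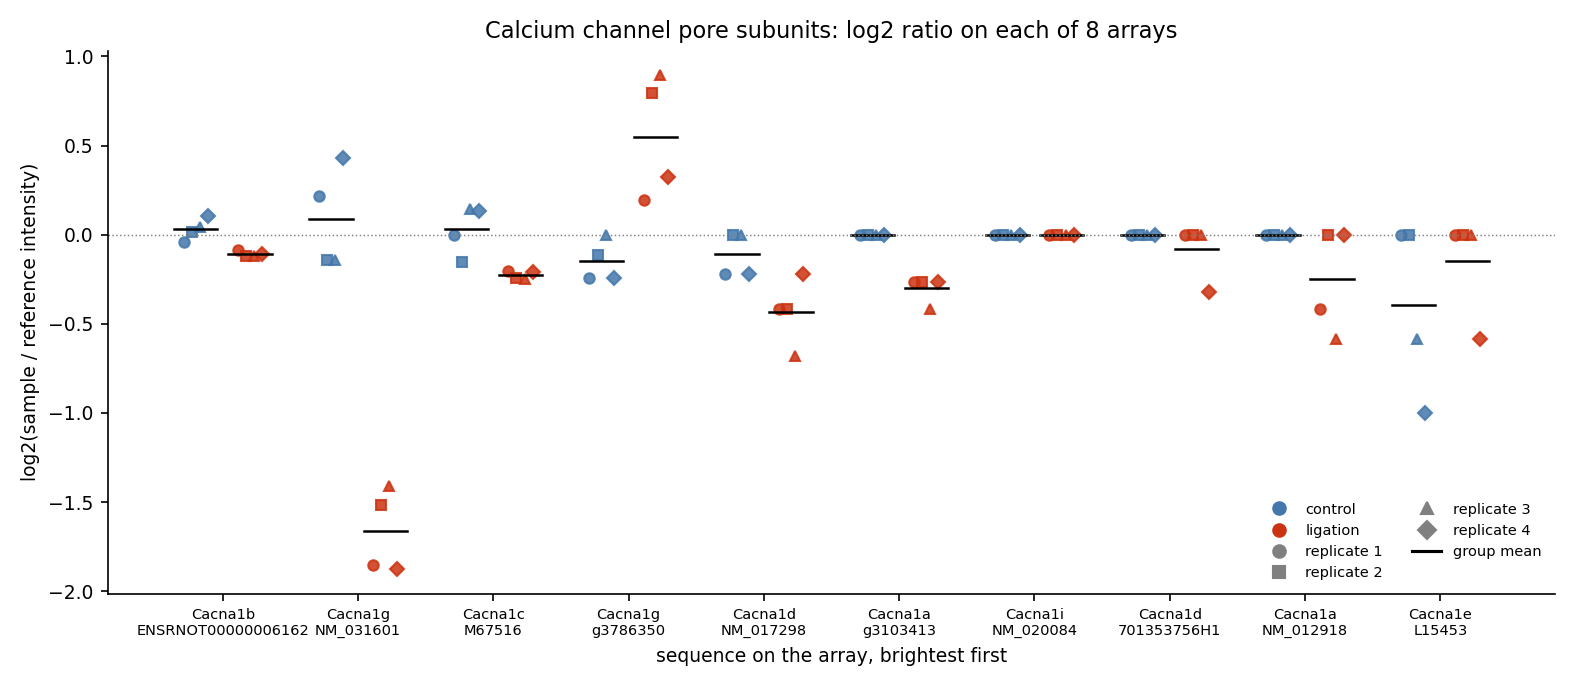
The vertical axis is the log2 ratio of sample over reference intensity, and each column is 1 sequence, ordered by mean sample intensity. Points are single arrays (blue control, red ligation, symbol by replicate number) and black lines are group means. The ligation arrays of Cacna1g NM_031601 sit between -1.87 and -1.41 and those of Cacna1g g3786350 between 0.19 and 0.89, while several dim sequences sit at exactly 0 on all 4 control arrays.

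Cacna1g encodes the pore of the T-type channel Cav3.1. For NM_031601 the sample intensity on control arrays 1 to 4 was 0.58, 0.48, 0.48 and 0.70, and on ligation arrays 1 to 4 it was 0.18, 0.22, 0.23 and 0.15. All 4 ligation samples were thus below all 4 control samples. The reference channel, which held the same pool throughout, read 0.50 to 0.53 beside the control samples and 0.55 to 0.65 beside the ligation samples. The mean log2 ratio was 0.09 ± 0.28 (SD, n = 4) in control and -1.66 ± 0.24 in ligation, a change of -1.75 ± 0.17 (SE, 95% interval -2.15 to -1.35, limma adjusted p = 8.15e-05). Among all tested sequences this was the 181st deepest fall. In the authors' deposited table, the p of the ratio within the array lay between 4.36e-18 and 3.41e-13 on the 4 ligation arrays, and below 0.05 on 1 of the 4 control arrays, where the ratio was above 0 (0.0088, control replicate 4).

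The other Cacna1g sequence, g3786350, had sample intensities of 0.11, 0.12, 0.13 and 0.11 on control arrays 1 to 4 and of 0.16, 0.26, 0.26 and 0.20 on ligation arrays 1 to 4. Every ligation sample lay above every control sample, and the rise was smallest on ligation array 1. Its reference channel read 0.13 beside each control sample and 0.14 to 0.16 beside the ligation samples. The mean log2 ratio went from -0.15 ± 0.12 (SD, n = 4) to 0.55 ± 0.34, a change of 0.70 ± 0.17 (SE, 95% interval 0.30 to 1.09, limma adjusted p = 0.00858). The rise was 0.99 on ligation arrays 2 and 3 alone and 0.41 on arrays 1 and 4 alone, and both passed the test. The authors' deposited table gave a within-array p below 0.05 on 3 of the 4 ligation arrays and on 0 of the 4 control arrays.

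**Figure D2:**
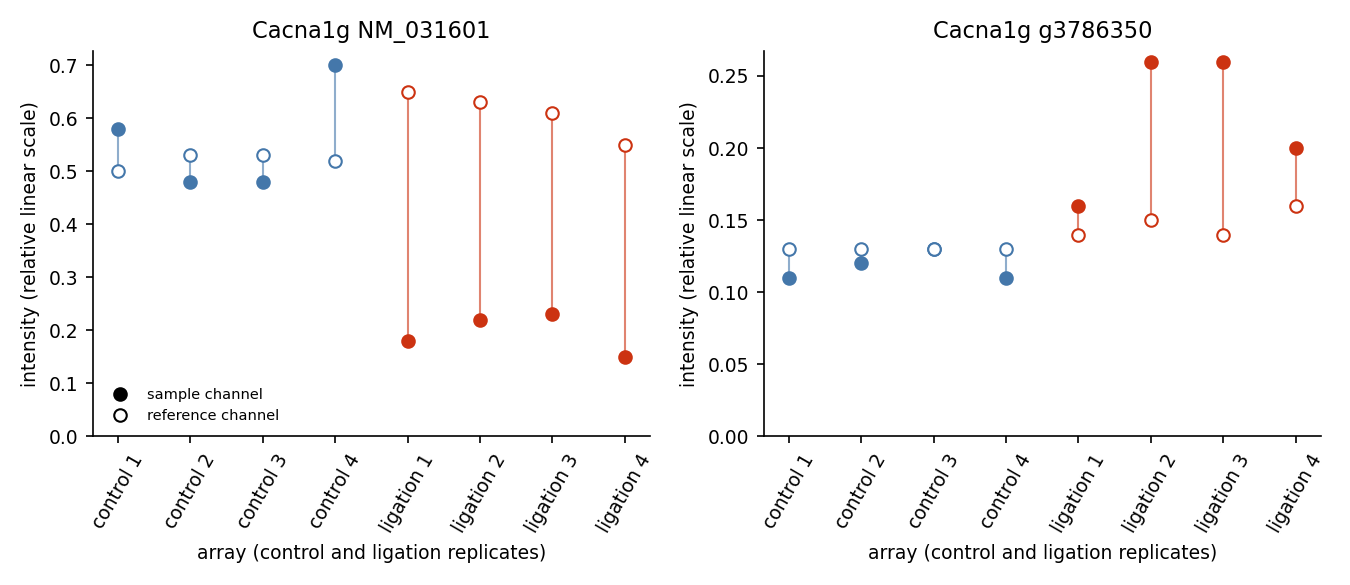
Intensities on the relative linear scale of the table are plotted for both Cacna1g sequences by array, with filled points for the sample channel and open points for the reference channel, joined within an array. On the left, NM_031601 samples drop to 0.15 to 0.23 in ligation under a reference of 0.55 to 0.65, and on the right, g3786350 samples reach 0.16 to 0.26 over a reference of 0.14 to 0.16.

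The gap between the Cacna1g sequences was large in ligation and even across the ligation arrays. The log2 ratio of NM_031601 minus that of g3786350 averaged 0.24 ± 0.39 (SD, n = 4) in control and -2.21 ± 0.12 in ligation, a difference of -2.45. The groups did not overlap, with an exact two-sided permutation p of 0.0286, the smallest that 4 against 4 arrays can give. Adjusted over the 3 genes with 2 sequences this p was 0.0857 and did not pass. A single pair cannot pass this adjustment even at the smallest possible p, so the adjusted value decides nothing here. A limma fit over all 6440 pairs of sequences of 1 gene in the table, added after the data had been seen, gave -2.45 ± 0.18 (SE, adjusted p = 2.83e-05), where 38.0% of all pairs passed. Of these pairs 21 (0.326%) differed by at least as much, this one included. Genes whose sequences passed the test in both directions made up 6.26% of the 3369 genes with several sequences. With the values of both sequences averaged, Cacna1g had a change of -0.53 (adjusted p = 0.0109), a value between those of its sequences. Where each oligo lies in the transcript, and on which strand, is not given in the sources used here.

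Both Cacna1g sequences were higher on ligation arrays 2 and 3 than on arrays 1 and 4. For NM_031601 the log2 ratios on ligation arrays 1 to 4 were -1.85, -1.52, -1.41 and -1.87, and for g3786350 they were 0.19, 0.79, 0.89 and 0.32. The median of 6 nociceptor markers, which mark the small neurons that detect painful stimuli, was -1.79, -1.43, -1.40 and -1.89 on the same arrays, close to NM_031601 on each of them. The summed sample intensity of the 6 nociceptor markers was 61.89 to 62.8 in control and 23.04 to 28.17 in ligation, and 5 of them passed as lower and 0 as higher. The remaining marker, Calca, was dim (0.04 to 0.08 in control, 0.06 to 0.09 in ligation), and rounding allowed log2 changes of -0.52 to 0.48. General neuronal markers passed as lower in 6 of 6 (median log2 change -1.37) and large neuron markers in 5 of 5 (median -1.99), where 35.8% of all named genes passed as lower. The general neuronal median was -1.28, -1.40, -1.32 and -1.27 on ligation arrays 1 to 4, without the order of the Cacna1g values. The large neuron median was -2.31, -2.16, -2.33 and -2.24, also without it. That order was not particular to nociceptor markers, since medians of some non-neuronal lists, given below, had it too. The part of these neuronal falls in the fall of NM_031601 was not tested.

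Markers of non-neuronal cells rose beside g3786350. Macrophage markers passed as higher in 4 of 5 (median log2 change 2.51), where 30.3% of all named genes did, with summed sample intensities of 2.48 to 2.92 in control and 21.67 to 23.14 in ligation. Fibroblast markers passed as higher in 4 of 4, and their median log2 ratio on ligation arrays 1 to 4 was 1.00, 1.30, 1.28 and 0.98, again with arrays 2 and 3 above arrays 1 and 4. Of these, Col1a1 did not pass under quantile normalization (adjusted p = 0.059). Their summed sample intensity was 12.91 to 16.28 in control and 29.09 to 37.97 in ligation. Smooth muscle and pericyte markers passed as higher in 2 of 5 and as lower in 1, all of which lost their call under quantile normalization between arrays, with summed intensities of 3.84 to 6.67 in control and 4.71 to 6.81 in ligation. Other lists also had arrays 2 and 3 above arrays 1 and 4. Their medians on ligation arrays 1 to 4 were 2.23, 2.26, 2.34 and 2.06 for macrophage markers. They were 0.10, 0.52, 0.30 and 0.25 for smooth muscle and pericyte markers, and -0.11, 0.10, 0.04 and -0.54 for satellite glia markers. Schwann cell markers (-0.22, -0.47, -0.67 and -0.40) and skeletal muscle markers (-2.84, -2.63, -2.80 and -2.76) did not have this order. The part of any of these cells in the rise of g3786350 was not tested.

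**Figure D3:**
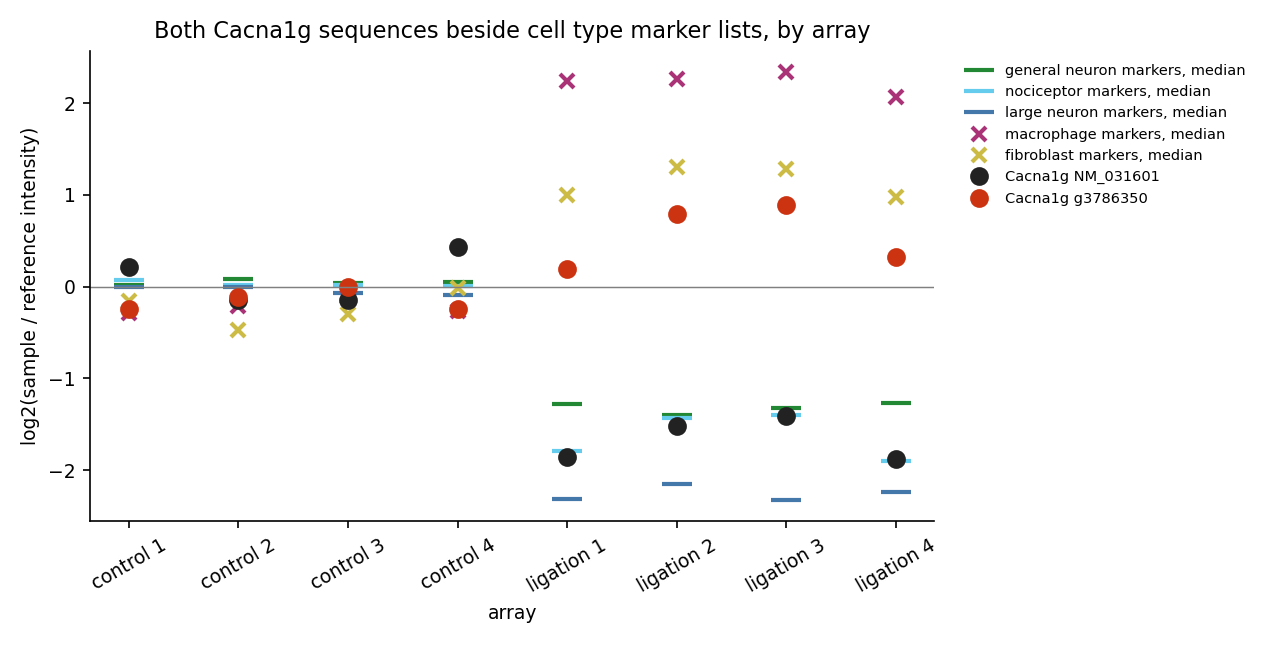
Log2 ratios of both Cacna1g sequences (filled circles) are plotted by array beside the median log2 ratio of the marker lists of 3 kinds of neuron (bars) and of macrophages and fibroblasts (crosses). On the ligation arrays NM_031601 lies at -1.87 to -1.41, beside the nociceptor median of -1.89 to -1.40, and g3786350 lies at 0.19 to 0.89, below the fibroblast median of 0.98 to 1.30.

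The genes with the most alike pattern over the 8 arrays were looked for among 8408 named sequences at or above the median intensity. For NM_031601 they were Kcnd3, the pore of a transient potassium channel (Pearson r = 0.995, log2 change -2.77), Fmnl1 and Sorl1 (r = 0.995 for each). For g3786350 they were Pdgfrl (r = 0.988), Cnep1r1 (0.986) and Lrg1 (0.984), all 3 with smaller log2 changes of 0.15 to 0.48. These correlations carry the step between the groups, which the arrays share: 848 genes had an r over 0.95 with NM_031601, and 72 had one with g3786350.

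Cacna1b, the pore of the N-type channel Cav2.2, was the brightest member. Its sample intensity was 0.69, 0.88, 1.01 and 0.86 on control arrays 1 to 4 and 0.82, 0.92, 0.81 and 0.90 on ligation arrays 1 to 4. These ranges overlapped, and the groups separated only as ratios, with references of 0.71 to 0.98 beside control and 0.87 to 1.00 beside ligation. The log2 ratio was 0.03 ± 0.06 (SD, n = 4) in control and -0.11 ± 0.02 in ligation, a change of -0.14 ± 0.03 (SE, 95% interval -0.22 to -0.06, limma adjusted p = 0.00785). The call was lost with the sample channel alone (adjusted p = 0.188) and under quantile normalization (adjusted p = 0.378), and without ligation arrays 2 and 3 (adjusted p = 0.0654). No alternative moved the change outside -0.20 to -0.11.

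Cacna1c, the L-type pore Cav1.2, which is also the calcium channel of smooth and cardiac muscle, had sample intensities of 0.19, 0.18, 0.21 and 0.23 in control and 0.20, 0.22, 0.16 and 0.19 in ligation. The intensities of the groups overlapped here too, while the ratios did not. The change was -0.26 ± 0.07 (SE, 95% interval -0.41 to -0.10, limma adjusted p = 0.0121), or 1.19-fold lower. It was not past the test with the sample channel alone (adjusted p = 0.0621), under quantile normalization (adjusted p = 0.43), on ligation arrays 1 and 4 alone or on arrays 2 and 3 alone.

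The other 6 sequences were dim, and rounding of the printed intensities alone allowed either direction for each of them. Cacna1d, the L-type pore Cav1.3, passed the test with NM_017298 (-0.32 ± 0.11, SE, limma adjusted p = 0.0328). Its sample intensities were 0.06, 0.07, 0.07 and 0.06 in control and 0.06, 0.06, 0.05 and 0.06 in ligation, and the log2 ratios of the groups overlapped. Rounding allowed changes of -0.76 to 0.11, and leaving out 1 array ended the call for 5 of the 8 arrays: ligation replicates 1, 2 and 3 (adjusted p = 0.0665, 0.0678 and 0.0586) and control replicates 2 and 3 (0.0837 and 0.0847). The call was also lost without ligation arrays 2 and 3 (-0.21, adjusted p = 0.172), and under quantile normalization the change was -0.0001 (adjusted p = 1.0). The authors' deposited table gave a p below 0.05 on 3 of the 4 ligation arrays for this sequence and on 0 of the 4 control arrays. The other Cacna1d sequence, 701353756H1, lay at 0.03 to 0.04 in control and 0.02 to 0.04 in ligation and did not pass (log2 -0.08, adjusted p = 0.391).

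Cacna1a, the P/Q-type pore Cav2.1, passed with g3103413 (-0.30 ± 0.04, SE, limma adjusted p = 3.39e-04) and not with NM_012918 (-0.25 ± 0.14, adjusted p = 0.161). The ratio of g3103413 was exactly 1 on all 4 control arrays, at sample intensities of 0.03, 0.06, 0.05 and 0.04. On the ligation arrays the samples read 0.05, 0.05, 0.03 and 0.05 against references of 0.06, 0.06, 0.04 and 0.06, 1 printed step lower each time. Rounding allowed changes of -0.95 to 0.34, and with the sample channel alone the adjusted p was 0.36.

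Cacna1e, the R-type pore Cav2.3, was the dimmest member, with sample intensities of 0.01 to 0.02 in control and 0.02 on all 4 ligation arrays. It did not pass (log2 0.25 ± 0.26, SE, limma adjusted p = 0.437), and rounding allowed -1.23 to 1.56. Cacna1i, the T-type pore Cav3.3, read 0.03 to 0.04 in control and 0.03 to 0.05 in ligation, with a ratio of exactly 1 on all 8 arrays. Its fitted change was 0, and rounding allowed -0.78 to 0.78. For Cacna1e and Cacna1i a change within these bounds was not detectable in the table.

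**Figure D4:**
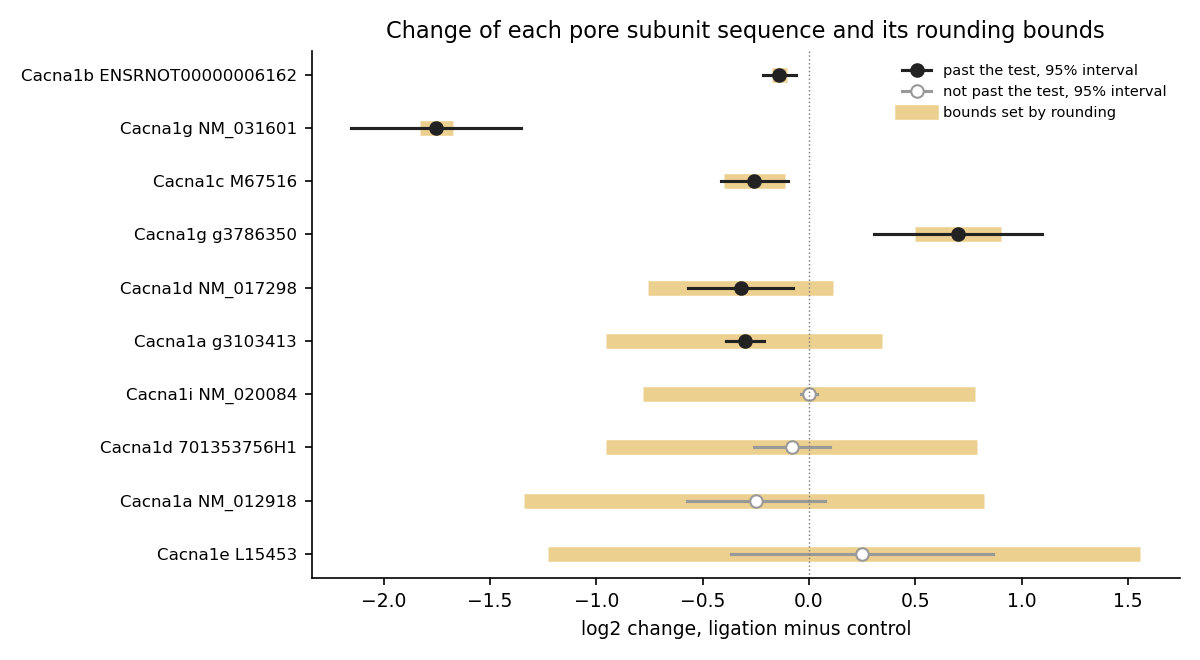
The horizontal axis is the log2 change, ligation minus control, of each sequence, brightest at the top. Circles and thin lines are the limma estimate and its 95% interval (black past the test, grey not), and the wide bands are the changes that rounding of the printed intensities allows. The bands cross 0 for the 6 dim sequences and stay narrow for Cacna1b, Cacna1c and both Cacna1g sequences.

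The pore genes were also set against each other, with the brightest sequence of each gene. Cacna1g NM_031601 fell further than each of the other 6 genes, by 1.43 to 2.00 on the log2 scale, and in each of these 6 pairs the differences in ligation did not overlap those in control. The exact two-sided permutation p was 0.0286 for each, the smallest possible, and 0.06 after adjustment over all 21 pairs, so 0 of the 21 pairs passed. With so few arrays, even the smallest p passes only if most of the 21 pairs reach it, so this adjusted test cannot separate single pairs. Of the other 15 pairs, 4 had a raw p of 0.0286, and over all 15 the differences were at most 0.57 in size. The 4 were Cacna1a minus Cacna1b (-0.16), and Cacna1a (-0.30), Cacna1b (-0.14) and Cacna1c (-0.26) minus Cacna1i. On all 8 arrays the ratio of Cacna1i was exactly 1. Each pair with Cacna1i, that of Cacna1g included, thus repeats the change of the other gene alone. Levels were not compared between genes, since each oligo has its own response.

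Of other pore genes of the family, Nalcn, a sodium leak channel of related structure, fell 1.60-fold (log2 -0.68 ± 0.10, SE, limma adjusted p = 8.34e-04). Cacna1s, the skeletal muscle pore, was near the bottom of the scale (sample intensity 0.0041 to 0.01) and did not pass (log2 -0.49, adjusted p = 0.157). Cacna1h, the T-type pore best known from sensory neurons, and Cacna1f are not analysed here.

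Among the auxiliary subunits 7 of 16 listed genes were measured, 1 passing as higher and 2 as lower, where 30.3% and 35.8% of genes did over the table with 1 sequence a gene. Cacna2d1, the alpha-2-delta subunit that gabapentin binds, went the other way from Cacna1g NM_031601: its sample intensity rose from 2.71 to 3.42 in control to 12.8 to 20.22 in ligation (log2 2.18 ± 0.14, SE). Its other sequence, g3332899, rose by 3.04. Cacnb3, a beta subunit that carries high-voltage-activated pores to the membrane, fell by 1.08 ± 0.05, and Cacng2, also called stargazin, fell by 1.55 ± 0.14. Cacng2 read 0.03 to 0.04 in ligation, and rounding allowed log2 changes of -2.03 to -1.09. The remaining beta subunits differed by 0.21 (Cacnb1), -0.15 (Cacnb2) and -0.10 (Cacnb4) on the log2 scale and did not pass, nor did Cacng1, a skeletal muscle subunit (0.10).

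Genes that regulate calcium channels were lower in 11 of 21 and higher in 3, beside 35.8% and 30.3% of all named genes. Gem, a small GTPase that inhibits high-voltage-activated channels, rose 1.93-fold, the zinc transporter Slc30a1, which also restrains L-type channels, rose 1.52-fold, and the transcriptional repressor Rest rose 1.41-fold. Kcnip3, a calcium-binding protein also known as DREAM, fell 4.45-fold, Gnao1, a G protein subunit of the pathway that inhibits N-type channels, 2.32-fold, and the kinase Cdk5 1.44-fold. The calmodulin gene Calm3 did not pass (log2 -0.00, adjusted p = 0.985). Slc30a1 did not pass under quantile normalization, and Rest, at an intensity of 0.03 to 0.08, did not pass with the sample channel alone and could by rounding have moved either way. Under quantile normalization 6 genes of this list were lower and 3 higher. Kcnip3 read 0.03 on the ligation arrays, and rounding allowed log2 changes of -2.58 to -1.76. Gnao1 read 20.25 to 21.8 in control, near the top of the scale.

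Genes of calcium stores and extrusion were lower in 13 of 22 (35.8% of all named genes) and higher in 5 (30.3%). Atp2a2, the calcium pump of the endoplasmic reticulum, fell 1.85-fold and the plasma membrane pump Atp2b2 2.19-fold. The IP3 receptor genes Itpr2 (1.76-fold) and Itpr1 (1.47-fold) rose, as did the mitochondrial exchanger Slc8b1 (1.54-fold), and Atp2b3, at the bottom of the scale, did not pass (log2 -0.02, adjusted p = 0.877). Under quantile normalization Itpr1 and Slc8b1 did not pass, and 8 genes of this list were lower and 2 higher, and with the sample channel alone Itpr1 did not pass, with 9 lower and 2 higher.

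Calcium buffers and sensors were lower in 13 of 15 and higher in 1, with a median log2 change of -0.72, where 35.8% of all named genes were lower and 30.3% higher. Vsnl1, visinin-like protein, fell 5.35-fold, the buffer parvalbumin (Pvalb) 3.98-fold and the kinase gene Camk2g 2.12-fold, while Camk2d rose 2.07-fold and Calb1 did not pass (log2 0, at an intensity of 0.02 to 0.03). Under quantile normalization 8 genes of this list were lower and 1 higher. Of 7 calcium-activated potassium channel genes, which calcium entry opens, 2 were higher and 1 lower, against 30.3% and 35.8% of all named genes, so the share of higher genes was near the background. Kcnn2 fell 5.34-fold (log2 -2.42 ± 0.17, SE), Kcnmb4 rose 2.06-fold, and Kcnma1, the pore of the large-conductance channel, did not pass (log2 -0.05, adjusted p = 0.519). Kcnn2 read 0.02 to 0.03 in ligation, and rounding allowed log2 changes of -2.95 to -1.95. Kcnn1 passed (0.25, adjusted p = 0.0424), but not under quantile normalization, with the sample channel alone, or in 5 of the 8 fits that leave out 1 array.

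Sodium channel alpha subunits, the nearest relatives of the pore subunits, were lower in 6 of 9 measured genes and higher in 1, with a median log2 change of -1.30, beside 35.8% lower and 30.3% higher among all named genes. Scn1a (-2.53), Scn8a (-1.70) and Scn9a (-1.30) fell and Scn3a rose (1.18). Set beside them, Cacna1g NM_031601 (-1.75) lay within the range of the sodium channel falls, -3.87 to -0.48, and Cacna1b (-0.14) and Cacna1c (-0.26) lay above it. Whether the families differ was not tested. The lists share genes: Scn10a is also a nociceptor marker, Scn1a and Pvalb are also large neuron markers, Snap25 is both a regulator and a general neuronal marker, and Cacnb1 is both an auxiliary subunit and a regulator.

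**Figure D5:**
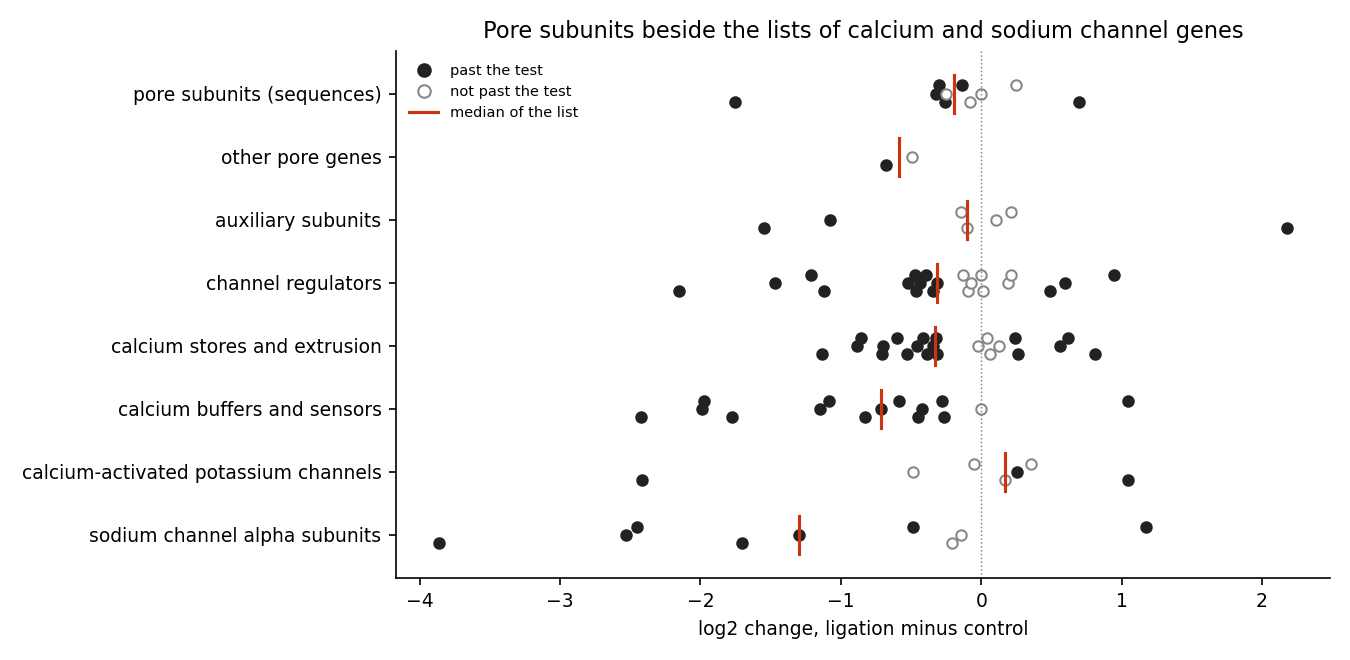
The horizontal axis is the log2 change, ligation minus control. Each point is 1 pore subunit sequence (top) or 1 gene of a list, filled where it passed the test, and red lines are medians. The pore subunits have a median of -0.19, the calcium buffers and sensors of -0.72 and the sodium channel alpha subunits of -1.30.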

How the data were processed

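Per the labels, each sample was hybridised on 1 Agilent array in Cy5 against a Cy3 control pool, after 2 rounds of amplification from 100 ng of RNA. The submitters' processing notes name Agilent Feature Extraction, version 8.5.1.1. How background was corrected and channels were scaled is not given in the sources used here. Each array's columns of the deposited table give an intensity for each channel on a relative linear scale and, per the file headers, a p-value of the ratio within each array, which is quoted but enters no test. A deposited table of log10 ratios matched the intensities within 0.005 for 100% of spots and was not used. The number of unmapped value columns was 0.

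Log2 ratios of sample over reference were averaged over the spots of a Sequence ID, with no further scaling. Sequences with values on at least 2 arrays of each group (22379 of 22491) were fitted with limma 3.58.1 in R 4.3.3 (lmFit, eBayes, two-sided), with a Benjamini-Hochberg adjusted p under 0.05 as threshold. The fit was tested on simulated data. As background, the control arrays differed from the reference for 0.661% of sequences and for 0 of the 10 pore subunit sequences. Rounding bounds take each printed intensity at the ends of its rounding interval. Differences between sequences used exact permutation tests over arrays (scipy 1.17.1). List genes were matched to RefSeq's rat annotation (GRCr8), by accession for 2955 sequences, by symbol for 10334 and by a single synonym for 1898. A gene took its sequence with the highest mean sample intensity. No coordinates are given, because no build is named for the array. With 4 arrays a group, array number sets the precision.

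Every sequence of the 7 genes is named. From each list the text names up to 3 genes with the smallest adjusted p in each direction and the 1 with the smallest change, and all auxiliary subunits; 2 genes that this rule names are not reported here. The members, lists and rules were chosen with earlier results of these data known. Nothing says whether the replicates came from separate operations, beyond the label of biological replicate. For the sample channel alone, log2 sample intensities were quantile normalised between arrays. Alternatives changed the scaling, the use of the reference, the intensity filter, the variance model, the spot and gene averaging, the replicate block and the arrays used. Tables and plots were made in Python 3.11.15 (matplotlib 3.10.9; pandas 2.3.3; numpy 2.4.6).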

Additional observations from a re-analysis of the deposited data

Results flagged for a closer look

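In 3 of the 15 sets of 4 arrays with unequal values, 1 array lay far from the others. Chance gives about 1 in 20 for continuous values, a rate that does not apply to these rounded values, where any single differing step stands out. All 3 were ligation arrays of dim sequences whose other 3 arrays had the same ratio to within the printed digits. Ligation replicate 3 had a log2 ratio of -0.415 for Cacna1a g3103413, where the others had -0.263. Ligation replicate 4 had -0.322 for Cacna1d 701353756H1 and -0.585 for Cacna1e L15453, where the others had 0.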

How the results depend on the processing

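Both Cacna1g sequences kept their direction and their call in every alternative in which they were tested, except that averaging the sequences of a gene gave -0.53 for g3786350. Leaving out 1 array at a time gave -1.84 to -1.64 for NM_031601, 0.59 to 0.82 for g3786350 and -0.39 to -0.24 for Cacna1d NM_017298. The limma fit over pairs gave -2.45 for their difference.

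Averaging gave -0.28 for Cacna1a and -0.20 for Cacna1d, both past the test. Calls were lost under quantile normalization by Cacna1b (-0.11), Cacna1c (-0.20) and Cacna1d NM_017298 (-0.0001), with the sample channel alone by Cacna1a g3103413 (-0.21), Cacna1b (-0.20) and Cacna1c (-0.30), without ligation arrays 2 and 3 by Cacna1b (-0.13), Cacna1c (-0.24) and Cacna1d NM_017298 (-0.21), and without arrays 1 and 4 by Cacna1c (-0.28). The cause was not tested.

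Rounding allowed -1.34 to 0.82 for Cacna1a NM_012918, -0.95 to 0.34 for g3103413, -0.40 to -0.11 for Cacna1c, -0.95 to 0.79 for Cacna1d 701353756H1, -0.76 to 0.11 for NM_017298, -1.23 to 1.56 for Cacna1e and -0.78 to 0.78 for Cacna1i.

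The 5 lower sequences became 2 under quantile normalization, with the sample channel alone, without ligation arrays 2 and 3 and among sequences at or above the median intensity, and 3 at an intensity of at least 0.1. The 1 higher became 0 at or above the median, where it was not tested, and 0 with averaging. Over all sequences, 7208 lower and 5897 higher became 3319 and 3044 under quantile normalization, 4643 and 3924 at or above the median, and 3869 and 3206 with averaging, the last pairs over fewer sequences.

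With the replicate number as a block, Cacna1d NM_017298 lost its call (-0.32, adjusted p = 0.0979) and the other 9 sequences kept their side of the threshold. The deviations of same-numbered samples correlated by 0.107, 0.068, 0.138 and 0.164, and each sample correlated best with its own number, a hint of pairing from the data and not from the design. Since the labels state no pairing and 1 of the 4 values was not over 0.1, the fit without the block was kept. The lower limit on what can be read is the 0.01 step of the printed intensity, which was 53.3% of the mean for Cacna1e and 1.2% for Cacna1b.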
